A study of Rattus norvegicus with 3 samples.

Results

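Emcn and Aldh1a2 tympanic-border-like cells were the cells of the P1 and P7 cochlear libraries that carried RNA of both Emcn, which encodes the sialomucin endomucin, and Aldh1a2, which encodes an enzyme that makes retinoic acid. Barcodes were kept if over 500 but under 5000 genes were found in them and if mitochondrial genes held under 25% of their unique molecular identifiers (UMIs, 1 per captured RNA molecule). A kept cell was a member when it had at least 3 Emcn UMIs and at least 1 Aldh1a2 UMI, fewer than 50 Ccn3 UMIs per 10000 UMIs, and at most 2 UMIs in all of the endothelial genes Cldn5, Cdh5, Flt1, Kdr and Egfl7. The rule found 1620 cells among the 25360 kept cells of these libraries, 945 at P1 and 675 at P7. They are called Emcn Aldh1a2 cells here, after their rule, because no position in the tissue was measured.

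The libraries were made from the cochlear ducts of untreated Sprague-Dawley rats at postnatal day 1, 7 and 14, with 40 rats pooled into a single library at each stage, and read by 10x 3′ single-cell RNA sequencing. The labels name the cells greater epithelial ridge cells. The pool at each stage is 1 sample, so no difference between stages could be tested, and an effect of stage cannot be told apart from one of its library. Levels are counts of a gene's UMIs summed over the cells of a group, scaled to 1000000 UMIs of those cells (CPM), with an exact Poisson 95% interval, and shares carry an exact Clopper-Pearson 95% interval, both of which cover counting error only.

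Tympanic border cells are mesenchymal cells that line the scala tympani side of the basilar membrane, the sheet that carries the organ of Corti. In the newborn cochlea they divide, respond to Wnt signals and border the matrix below the sensory epithelium. Aldh1a2 oxidises retinaldehyde to retinoic acid, which then acts through nuclear receptors. Emcn is best known from the endothelium of veins and capillaries, and for that reason the endothelial genes were used to leave vessel cells out. Calb2 encodes the calcium buffer calretinin and Kcnk2 encodes TREK-1, a potassium channel of the background-leak family.

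After the filter the libraries held 12779 cells at P1, 12581 at P7 and 5281 at P14, 30641 in all. The members had a median of 8033 UMIs and 2462 genes at P1 and of 8769 UMIs and 2788 genes at P7, somewhat above the medians of all kept cells (6565 and 6878 UMIs). Scrublet marked 11.5% (9.57 to 13.7) of the members at P1 and 14.5% (11.9 to 17.4) at P7 as doublets, against 4.87% and 6.16% of all kept cells. The P1 and P7 libraries shared 60 barcodes, 1 of which was a member. Members were compared with all other kept cells of the same library and with 2 like groups. The first, Ccn3-high Aldh1a2 cells (913 at P1, 287 at P7), carried Aldh1a2 with Ccn3 above the limit, and the second, Crym Isyna1 cells (2441 and 1532), had no Aldh1a2 UMI and carried Crym and Isyna1.

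The rule's own genes describe the choice and test nothing. Emcn stood at 808 CPM at P1 and 1364 at P7 in the members, with 3 to 32 and 3 to 56 UMIs a cell, and Aldh1a2 at 561 and 644 CPM. At P1, 4166 kept cells had at least 3 Emcn UMIs and 1836 of these had Aldh1a2, whereas at P7 the counts were 4161 and 989. The limit on Ccn3, which encodes a secreted matrix-associated CCN protein, then took out 858 cells at P1 and 270 at P7, and the endothelial limit 33 and 44 more.

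Calb2 differed less across the Emcn limit than across the Aldh1a2 limit. Members with exactly 3 Emcn UMIs had 165 CPM of Calb2 at P1 and 58.8 at P7, and cells just outside, with 2, had 116 and 40.9. Members with exactly 1 Aldh1a2 UMI had 89.1 and 91.1 CPM, and cells that met the rest of the rule with no Aldh1a2 UMI had 17.0 and 10.1. Members with 40 to 50 Ccn3 UMIs per 10000 had 76.3 and 240 CPM of Calb2, and cells just above the limit, with 50 to 60, had 52.9 and 149.

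Calb2 and Kcnk2 mark the cells but took no part in the rule. They were chosen as markers with earlier results of these data known, so their levels describe the members and test nothing. Both were higher in the members than in the other groups in each library. Calb2 was at 166 CPM (157 to 174) at P1 and 281 (268 to 294) at P7 in the members, against 13.2 and 9.86 in other kept cells, 5.58 and 4.69 in Crym Isyna1 cells, and 31.3 and 120 in Ccn3-high Aldh1a2 cells. Kcnk2 was at 204 CPM (195 to 214) and 289 (276 to 302) in the members, against 22.9 and 20.9 in other kept cells, 14.2 and 15.4 in Crym Isyna1 cells, and 33.0 and 154 in Ccn3-high Aldh1a2 cells. For both genes the order at each stage was members, Ccn3-high Aldh1a2 cells, other kept cells and Crym Isyna1 cells, and the members' level was a smaller multiple of that in the Ccn3-high cells at P7 than at P1.

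Calb2 RNA was found in 52.3% of the members at P1 and 63.9% at P7, and Kcnk2 RNA in 62.0% and 67.0%. With every cell thinned to 2000 UMIs the shares were 25.1% and 37.6% for Calb2 and 29.7% and 35.3% for Kcnk2. Endothelial-like cells, with at least 5 UMIs of the 5 endothelial genes and median depths of 8986.5 and 7830.0 UMIs, gave the background, at 1.05% and 0.969% for Calb2 and 2.80% and 2.42% for Kcnk2 after the same thinning. The label's markers were thus present in many members but not in all of them.

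**Figure D1:**
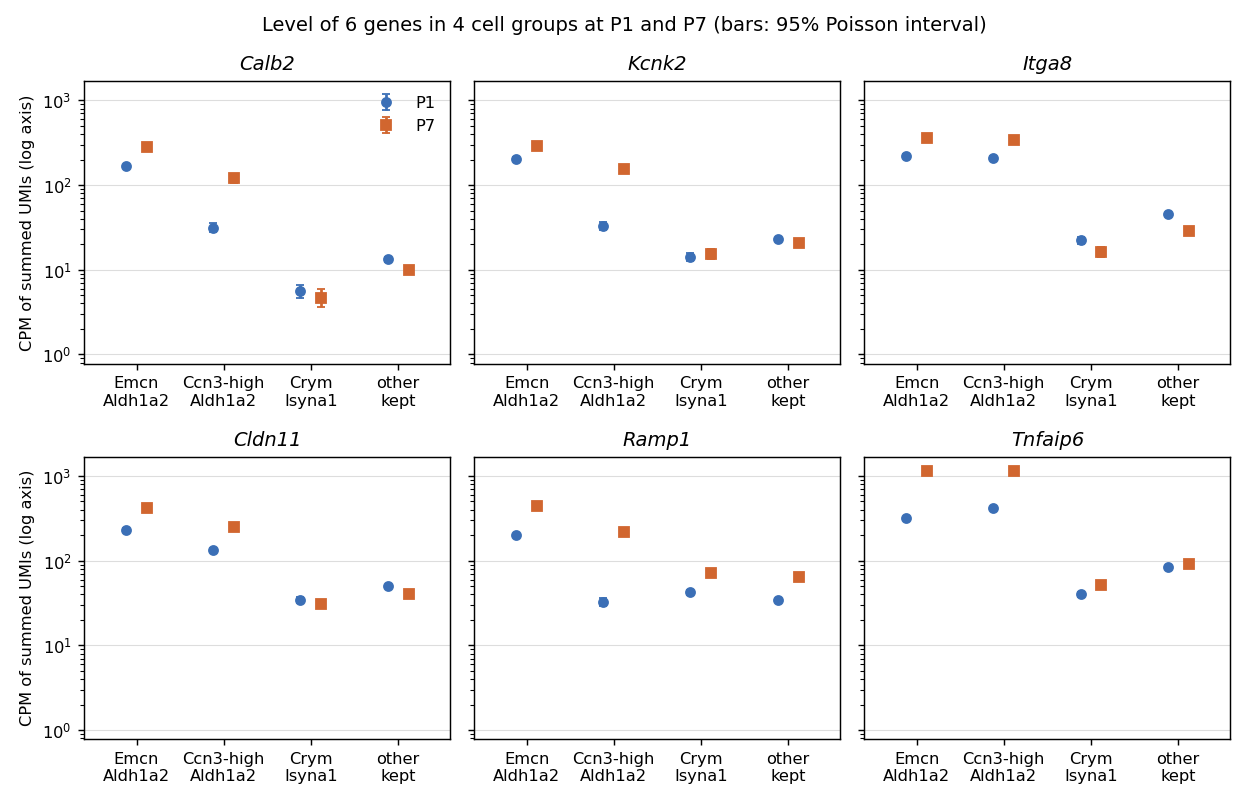
Level of 6 genes (CPM of summed UMIs, log axis) in Emcn Aldh1a2 cells, Ccn3-high Aldh1a2 cells, Crym Isyna1 cells and other kept cells at P1 (circles) and P7 (squares), with bars for the exact Poisson 95% interval. Emcn Aldh1a2 cells are the highest group for Calb2, Kcnk2, Cldn11 and Ramp1 at each stage. For Itga8 their interval overlaps that of Ccn3-high Aldh1a2 cells at P1 (212 to 232 against 198 to 218 CPM) and at P7 (343 to 372 against 317 to 363). Tnfaip6 is higher in Ccn3-high Aldh1a2 cells at P1 and about equal at P7. Calb2 in Emcn Aldh1a2 cells is at 166 and 281 CPM against 13.2 and 9.86 in other kept cells.

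Of 6233 genes found in at least 10% of the members at each stage, 69 (1.11%) were 2-fold or more higher in the members than in other kept cells in both libraries and 49 (0.786%) were lower. All ratios are of CPM with 10 CPM added, which lessens the ratio of low genes. Since the rule chose cells by genes of this contrast, these ratios describe the members. The leading genes below are those with the largest smaller-of-2-libraries ratio among genes found in at least 50% of the members at each stage.

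After Aldh1a2, Calb2 and Kcnk2, the leading genes of known role are taken here by where their products act. Itga8, the α8 integrin that binds nephronectin in basement membranes, was at 222 CPM at P1 and 357 at P7, against 45.4 and 28.8 in other kept cells (log2 ratios 2.07 and 3.24). Cldn11, a claudin that forms tight junctions between basal cells of the stria vascularis and in myelin, was at 231 and 424 CPM against 49.8 and 40.9 (2.01 and 3.09). Cavin2, a coat protein of caveolae, was at 394 and 326 CPM, with log2 ratios over other kept cells of 2.43 and 3.17. These 3 genes had a wider gap to the other cells at P7 than at P1. Ccn3-high Aldh1a2 cells came close to the members in Itga8, at 208 and 340 CPM.

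Ramp1, a subunit of the receptor for the vasodilator peptide CGRP, was at 199 and 444 CPM against 34.5 and 64.6 (2.23 and 2.60). Enpep, the aminopeptidase that trims angiotensin II, was at 113 and 240 CPM (1.89 and 2.54), and Slc1a3, the glutamate transporter GLAST, at 815 and 593 CPM against 229 and 102 (1.79 and 2.43), with 795 and 590 in Ccn3-high Aldh1a2 cells. Among the secreted products, Tnfaip6, a hyaluronan-binding protein that crosslinks matrix, was at 317 and 1138 CPM against 84.0 and 91.6 (1.80 and 3.50), with 420 and 1148 in Ccn3-high Aldh1a2 cells, above the members at P1 and level with them at P7, and Clu, the extracellular chaperone clusterin, at 715 and 1827 CPM (2.41 and 2.68). Scara3 (221 and 288 CPM), Pam, the enzyme that amidates peptides (386 and 282 CPM), and the actin-severing protein gelsolin, Gsn (602 and 976 CPM), completed the named genes of this set, with log2 ratios between 1.66 and 2.77. Only Gsn among these 3 had a smaller ratio at P7 (1.66) than at P1 (1.77).

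In the P14 library 78 of 5281 kept cells passed the same rule, and 382 of 4302 genes (8.88%) were 2-fold or more higher in them than in other P14 cells. Of the 15 leading genes, the 14 other than Aldh1a2 were among these.

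The 1620 cells were not uniform in the 2 markers the rule left free. Members with no UMI of Calb2 or Kcnk2 were 225 of 945 at P1 (23.8%, 21.1 to 26.7) and 150 of 675 at P7 (22.2%, 19.1 to 25.6), and members with 3 or more were 476 (50.4%) and 409 (60.6%). Depth differed little between them, with median UMIs of 7879 and 7836 in cells with none and 8260 and 9018 in cells with 3 or more. A single Aldh1a2 UMI had admitted 39.6% and 67.3% of the cells with none, but 11.3% and 10.0% of those with 3 or more.

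Among 3683 genes compared, 31 (0.842%) were 2-fold or more higher at each stage in members with 3 or more Calb2 and Kcnk2 UMIs than in members with none, which is 29 beside Calb2 and Kcnk2 themselves, and 30 (0.815%) were lower. The genes named from this split were chosen after their values were seen. Ramp1 was at 297 CPM at P1 and 608 at P7 in members with 3 or more, against 46.3 and 63.8 in members with none. Clec1a, a C-type lectin receptor, was at 118 and 112 CPM against 13.1 and 6.17, and Gsn at 827 and 1249 against 235 and 309. Cldn11 was at 287 and 579 CPM against 127 and 47.3, the Wnt ligand gene Wnt6 at 81.8 and 125 against 17.8 and 32.9, and the odd-skipped transcription factor Osr2 at 120 and 235 against 44.0 and 45.3.

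Members with none of the 2 markers were higher in Crym, which encodes a cytosolic binder of thyroid hormone, and in several matrix genes. Crym was at 1691 CPM at P1 and 2874 at P7 in these members, against 398 and 351 in those with 3 or more. The membrane peptidase gene Mme was at 394 and 267 CPM against 94.4 and 41.2, the fibronectin gene Fn1 at 456 and 823 against 200.2 and 269.9, and the matricellular gene Ccn2 at 126 and 142 against 30.1 and 19.3. The cartilage collagens followed the same order, with Col9a1 at 790 and 2749 CPM against 320 and 663 and Col2a1 at 173 and 583 against 49.3 and 93.1. Whether the members with none and those with 3 or more are separate cell types was not tested.

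**Figure D2:**
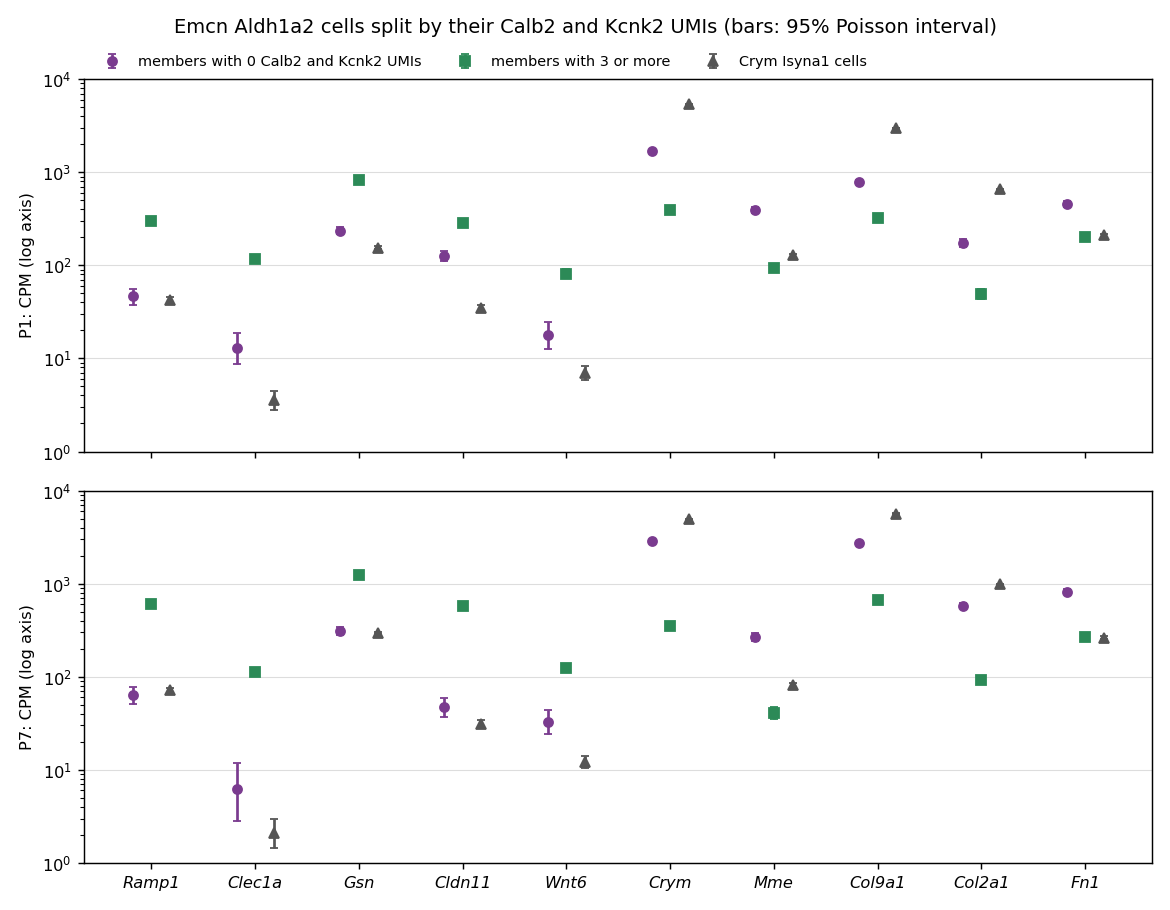
Level (CPM of summed UMIs, log axis) of 10 genes at P1 (top) and P7 (bottom) in members with 0 Calb2 and Kcnk2 UMIs (circles), in members with 3 or more (squares) and in Crym Isyna1 cells (triangles), with bars for the exact Poisson 95% interval. Ramp1, Clec1a, Gsn, Cldn11 and Wnt6 are higher in members with 3 or more, and Crym, Mme, Col9a1, Col2a1 and Fn1 are higher in members with 0, at each stage.

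Between P1 and P7, 7528 genes found in at least 10% of the members at either stage were compared. Of these, 253 (3.36%) were 2-fold or more higher at P7 and 92 (1.22%) were 2-fold or more lower, and a gene past either limit is called here. The median log2 ratio of all genes compared was 0.15 in the members, against 0.09 in other kept cells, 0.11 in Crym Isyna1 cells and 0.12 in Ccn3-high cells, so a ratio near 0.15 is the middle of the table. Centring the ratios on that median turned the balance of the calls, from 253 higher and 92 lower (73.3% higher) to 147 higher and 175 lower (45.7% higher). Leaving genes with mitochondrial, ribosomal protein and hemoglobin symbols out of the total gave 266 and 168 (61.3% higher). LOC103694857 and LOC689064 have no such symbol and stayed in that total.

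Most of what differed between the stages also differed in the rest of the libraries. In other kept cells 213 of the same genes were higher at P7 (2.83%) and 129 were lower (1.71%). Of the 253 genes higher in the members, 148 (58.5%) were also called higher in other kept cells, which is 69.5% of the 213 called there, and of the 92 lower genes 73 (79.3%) were, which is 56.6% of the 129. Ccn3-high Aldh1a2 cells had 263 higher (3.49%) and 123 lower (1.63%), and Crym Isyna1 cells 244 (3.24%) and 113 (1.5%). Of the 253 genes, 166 (65.6%) were also called in Ccn3-high cells, 63.1% of the calls there, and 159 (62.8%) in Crym Isyna1 cells, 65.2% of the calls there. The lists share their libraries, so the overlap says nothing on its own of a shared response.

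Just 9 genes (0.12%) were 2-fold or more higher at P7 in the members and by 2-fold or more beyond the ratio in both other kept cells and Crym Isyna1 cells, and 0 genes (0%) were lower in that way. They were chosen after their values were seen, and the ratio in Ccn3-high Aldh1a2 cells was not part of the choice. Gpr182, a receptor that scavenges chemokines, was at 8.12 CPM (6.37 to 10.2) at P1 and 77.2 (70.6 to 84.2) at P7, a log2 ratio of 2.27, against 0.30 in other kept cells, 0.30 in Crym Isyna1 cells and 2.06 in Ccn3-high Aldh1a2 cells. Tnfaip6 went from 317 to 1138 CPM (1.81, against 0.11, 0.29 and 1.43), and Osr1, an odd-skipped transcription factor of connective tissue, from 18.5 to 90.2 CPM (1.82, against 0.28, 0.36 and 1.65). For these 3 genes the ratios of the Ccn3-high cells stood with those of the members, and the other 2 groups stood near the middle of the table. The level of Osr1 was lower in Ccn3-high cells than in the members, at 2.39 CPM at P1 and 28.8 at P7.

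After thinning to 2000 UMIs, Tnfaip6 RNA was found in 41.1% of the members at P1 and 68.7% at P7, against 5.94% and 11.9% of the endothelial-like cells. Osr1 RNA was found in 4.34% and 16.4%, against 0 of 286 cells, which allows a share of up to 1.05% by the limit of 3 counts, and 0.242%. Gpr182 RNA was found in 1.48% and 13.4%, against 0.699% and 1.21%. At P7 the shares of all 3 genes lay above that background, whereas at P1 the share of Gpr182 was within counting error of it (background interval 0.0848% to 2.50%).

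The other genes of this group were Mab21l1 (23.0 to 82.6 CPM, log2 1.49), Flrt3, an adhesion and guidance protein of the FGF pathway (28.1 to 90.4, 1.40), Scd, a desaturase of fatty acids (26.3 to 105, 1.67), the small GTPase gene Gem (5.01 to 35.1, 1.59), Atp1b1, the β1 subunit of the sodium pump (32.8 to 79.6, 1.07), and Hba-a2, α-globin (80.9 to 814, 3.18). Hba-a2 is an erythrocyte product, and its ratio was 0.99 in other kept cells and 5.01 in Ccn3-high cells. A second gene entry with that symbol went from 52.7 to 374 CPM (log2 2.61) and was not in this group. Its ratio was 0.56 in other kept cells and 1.65 in Crym Isyna1 cells. In Ccn3-high cells the log2 ratios were 1.26 for Mab21l1, 1.09 for Flrt3, 0.96 for Scd, 1.98 for Gem and 0.87 for Atp1b1. Across 17 alternative settings Gpr182 kept its place in this group in 17, Tnfaip6, Osr1 and Mab21l1 in 16, Flrt3 in 15, Gem in 14, Scd in 13, and Atp1b1 and Hba-a2 in 11.

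Members with 3 or more Calb2 and Kcnk2 UMIs held the higher P7 level of Tnfaip6. In these members Tnfaip6 was at 385 CPM at P1 and 1564 at P7 (log2 1.99), whereas in members with none it was at 211 and 147 (-0.49). Cldn11 likewise had a log2 ratio of 0.99 with 3 or more and -1.26 with none. For Gpr182 (2.48 and 1.07) and Osr1 (1.94 and 0.90) both kinds of member were higher at P7.

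**Figure D3:**
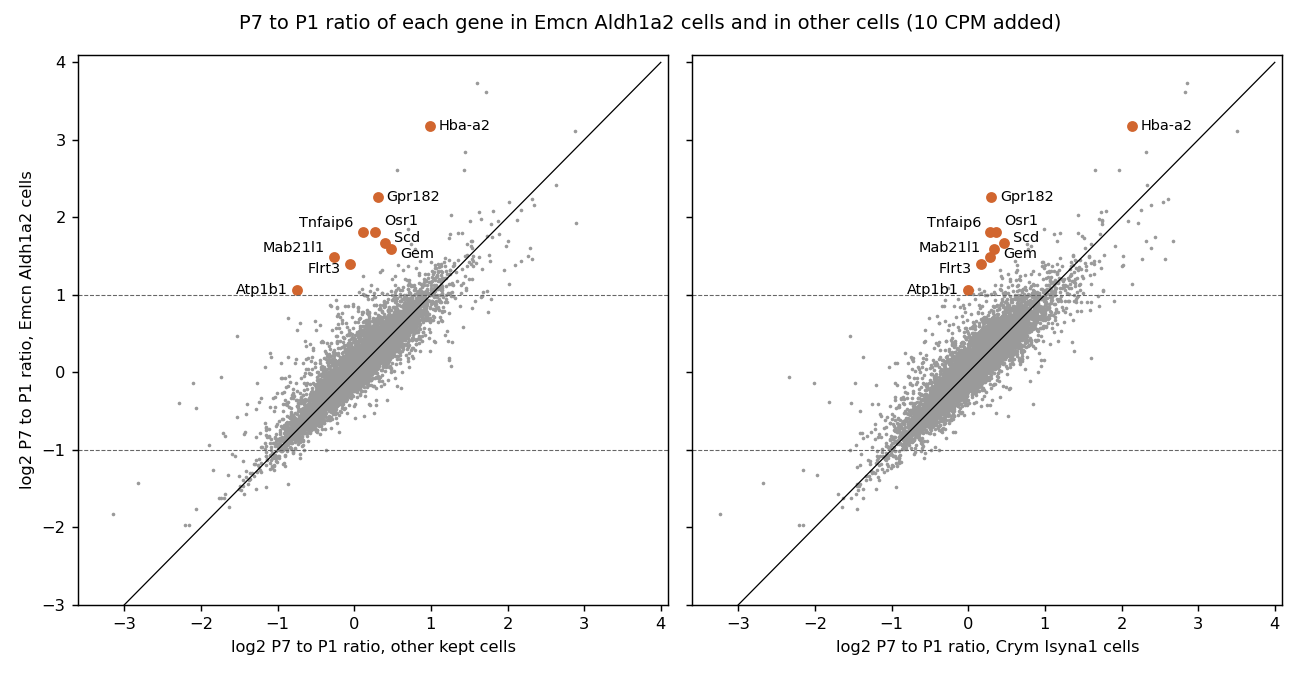
Log2 P7 to P1 ratio (10 CPM added) of 7528 genes in Emcn Aldh1a2 cells (vertical axis) against other kept cells (left) and Crym Isyna1 cells (right). Grey points are genes, the diagonal marks equal ratios, dashed lines mark a 2-fold difference in the members, and the 9 labelled genes lie at least 2-fold above the diagonal in both panels, from Atp1b1 at 1.07 to Hba-a2 at 3.18.

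Gpr182, Tnfaip6 and Osr1 are shown with the 250 bases before their start sites. Of the 9 genes, they had the log2 ratios farthest beyond those in Crym Isyna1 cells. Their log2 ratios were also beyond those in other kept cells, by 1.96, 1.70 and 1.54. Hba-a2, Atp1b1 and Mab21l1 exceeded the ratios in other kept cells by 2.19, 1.81 and 1.75. The members also carry RNA of a retinoic acid synthase. The windows are from RefSeq on the GRCr8 assembly, written 5′ to 3′, Gpr182 on the minus strand at chr7:65474111-65474360, Tnfaip6 on the plus strand at chr3:56911148-56911397 and Osr1 on the plus strand at chr6:38097401-38097650. Capitals mark the letters AGGTCA, the core that retinoic acid receptors and other nuclear receptors bind, searched on both strands and here read as TGACCT.
Gpr182: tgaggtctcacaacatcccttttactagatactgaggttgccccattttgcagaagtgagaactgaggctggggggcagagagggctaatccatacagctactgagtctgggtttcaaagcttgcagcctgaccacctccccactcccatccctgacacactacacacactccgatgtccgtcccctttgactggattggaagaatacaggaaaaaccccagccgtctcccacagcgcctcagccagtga
Tnfaip6: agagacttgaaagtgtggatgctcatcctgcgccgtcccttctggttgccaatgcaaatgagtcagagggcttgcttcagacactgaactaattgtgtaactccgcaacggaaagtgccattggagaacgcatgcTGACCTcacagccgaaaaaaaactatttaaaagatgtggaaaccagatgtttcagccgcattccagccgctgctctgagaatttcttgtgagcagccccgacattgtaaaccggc
Osr1: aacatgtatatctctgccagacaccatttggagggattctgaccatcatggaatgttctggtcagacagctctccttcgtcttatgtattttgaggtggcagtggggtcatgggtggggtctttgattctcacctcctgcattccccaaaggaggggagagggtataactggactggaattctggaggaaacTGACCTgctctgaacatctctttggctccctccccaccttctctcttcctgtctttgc
The motif began 115 bases before the Tnfaip6 start and 58 bases before the Osr1 start, and the Gpr182 window did not hold it. Of the 9 genes, 7 were matched to a window and 2 windows held the motif, and of the 15 leading genes 11 were matched, with 14 windows, and 1 held it. The motif lay in 4707 of 33469 windows of the table (14.1%), so a match of this kind is common and is given as a description of the letters alone.

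The genes with the largest ratios higher at P7 were chosen by size among genes found in at least 25% of the members at P7, and most were also higher in other kept cells. Tnfrsf11b, osteoprotegerin, the decoy receptor that restrains osteoclast formation, went from 28.4 CPM at P1 to 224 at P7 (log2 2.61, against 1.44 in other kept cells and 2.80 in Ccn3-high Aldh1a2 cells). Bambi, a pseudoreceptor that damps BMP and TGF-β signals, went from 24.7 to 135 CPM (2.07, against 1.63), and Angptl4, an inhibitor of lipoprotein lipase, from 24.0 to 122 CPM (1.95, against 1.51). Pmepa1, Cd9, P3h3 and Trappc2b had log2 ratios of 2.41, 2.24, 2.09 and 1.98 in the members and of 2.63, 2.32, 2.17 and 1.66 in other kept cells. The genes LOC103694857 and LOC689064 had the highest ratios, 3.74 and 3.62 in the members and 1.60 and 1.72 in other kept cells. In Ccn3-high Aldh1a2 cells their ratios were 5.40 and 5.12, beside 5.01 there for the erythrocyte gene Hba-a2. The part of erythrocyte RNA in these ratios was not tested.

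The genes with the largest ratios lower at P7 included Egr1 and Fos, immediate early genes, and the named ones were lower in other kept cells by about as much. Egr1 was at 499.7 CPM at P1 and 119.5 at P7 (log2 -1.98, against -2.21 in other kept cells), and Fos at 958 and 304 CPM (-1.62, against -1.71). The linker histone gene Hist1h1e was at 269 and 61.5 CPM (-1.96, against -2.16), and Smarcc1, a subunit of the BAF remodelling complex, at 108 and 29.8 CPM (-1.57, against -1.44). Eif2s3y, a gene of the Y chromosome, was at 66.0 and 12.3 CPM (-1.77, against -2.06). The sexes of the pooled rats were not given for each library, so sex and stage cannot be told apart for that gene.

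Of 9 genes of retinoic acid synthesis, binding and breakdown that were compared, 0 were called in either direction between the stages, and the list's median log2 ratio was 0.20 against 0.15 over all genes. Crabp2, which carries retinoic acid to its nuclear receptors, was at 150 CPM at P1 and 310 at P7, just under the 2-fold call, with 50.6 and 77.8 CPM in other kept cells. The receptor gene Rara was at 101.5 and 87.2 CPM, and Rarb at 85.6 and 112.

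Among Wnt genes the list of ligands and antagonists had a higher median ratio than the list of targets, in the members and in other kept cells. Of 10 ligands and secreted antagonists compared, 3 were higher at P7 and 0 lower, with a median log2 ratio of 0.66 in the members and 0.60 in other kept cells. Wnt5a was at 59.5 and 162 CPM (1.31), Wnt4 at 7.23 and 29.9 (1.21) and the antagonist Sfrp4 at 13.9 and 42.5 (1.14). Of 9 targets, only Myc was called, at 8.90 and 31.4 CPM (1.13), and the median was 0.13 (0.06 in other kept cells). Axin2, a feedback inhibitor of the pathway and a known mark of tympanic border cells, was at 80.7 and 94.3 CPM in the members against 42.6 and 25.8 in other kept cells, and it was higher in Ccn3-high Aldh1a2 cells, at 133 and 151.

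The matrix lists differed in their medians. Of 6 cartilage-type collagens 5 were higher at P7 and 0 lower, with a median of 1.20 against 0.81 in other kept cells and 0.75 in Crym Isyna1 cells. Col11a2 was at 29.2 and 138 CPM (1.91), Col9a2 at 173 and 483 (1.43), Col9a1 at 509 and 1239 (1.27) and Col2a1 at 95.5 and 220 (1.12), and all 6 stayed 2-fold or more below other kept cells at each stage. Cartilage markers as a list were at 181 and 458 CPM in the members and 635 and 1227 CPM in other kept cells, and their part in the collagen ratios was not tested.

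Of 17 basement and basilar membrane genes compared, 0 were called, with a median of 0.31 against 0.17 in other kept cells. Fn1 was at 299 and 450 CPM, Col4a1 at 188 and 161, and Tnc, a matrix glycoprotein of the basilar membrane, at 81.1 and 130 against 39.6 and 32.8 in other kept cells and 161 and 291 in Ccn3-high Aldh1a2 cells. Emilin2, a glycoprotein of the basilar membrane, was low, at 19.8 and 10.8 CPM against 5.82 and 2.29 in other kept cells and 27.5 and 23.6 in Ccn3-high Aldh1a2 cells. Of 21 interstitial and microfibrillar genes only Col6a1 was called, lower at P7 (59.4 and 24.5 CPM, -1.01), and Col3a1, a fibrillar collagen of loose tissue, was at 705 and 1346 CPM (0.92). Small leucine-rich proteoglycans gave 0 calls of 5, with Dcn, decorin, at 395 and 794 CPM (0.99).

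The growth factor lists are read beside the 3.36% of all genes called higher and 1.22% called lower, under which few or no lower genes are foreseen in lists of this size. Of 10 FGF and PDGF genes 4 were higher at P7 and 0 lower (median 0.92 against 0.64 in other kept cells), among them Spry2, an inhibitor of FGF signals (12.01 and 47.2 CPM, 1.38), and the receptor gene Fgfr4 (16.4 and 52.7 CPM, 1.25). Of 19 BMP and TGF-β genes 3 were higher and 0 lower, with the ligand gene Bmp4 at 13.7 and 46.0 CPM (1.24, against 0.11 in other kept cells). Of 10 genes of the insulin-like growth factor axis 2 were higher and 0 lower, and Igfbp2, a binding protein that holds the growth factors in the matrix, was at 2510 and 4384 CPM.

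Of 22 transcription factors known from otic mesenchyme, 2 were higher at P7 and 0 lower. These were Osr1 and Sox9, which drives cartilage and otic fates (40.6 and 108 CPM, 1.22). Tbx18, a T-box factor of the otic capsule and fibrocytes, was at 506 and 612 CPM, and Pou3f4, whose loss causes deafness through the mesenchyme, at 559 and 406. Osr2 was at 94.0 and 181 CPM (0.87) against 14.7 and 9.92 in other kept cells, with 81.8 and 171 in Ccn3-high Aldh1a2 cells.

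Of 6 genes that handle thyroid hormone, a driver of cochlear maturation, 2 were higher at P7 and 0 lower. The transporter gene Slco1c1 was at 76.1 and 279 CPM (1.75) and the receptor gene Thrb at 7.34 and 28.7 CPM (1.16), and Crym was at 840.5 and 1029 CPM. Of 3 gap junction connexins 2 were higher, Gjb6 (24.3 and 81.0 CPM, 1.41) and Gjb2 (50.3 and 124 CPM, 1.15), both deafness genes, with a median of 1.15 in the members and 1.28 in other kept cells. Of 12 calcium-binding protein genes only S100b was higher (187 and 449 CPM, 1.22). Among 10 genes of cochlear stromal secretion 4 were higher, with the apolipoprotein genes Apod at 220 and 703 CPM and Apoe at 1508 and 3875.

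**Figure D4:**
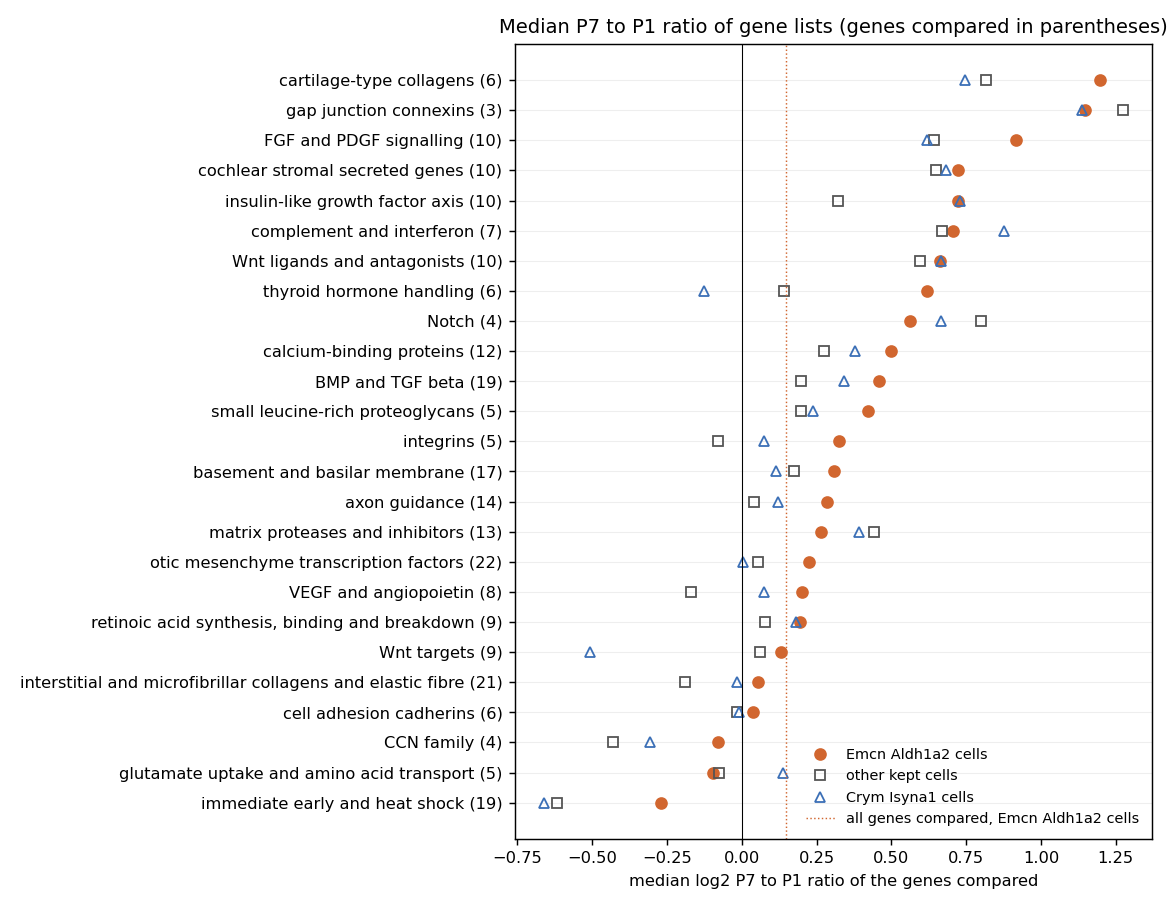
Median log2 P7 to P1 ratio of the genes compared in each pathway list (number in parentheses) in Emcn Aldh1a2 cells (filled circles), other kept cells (squares) and Crym Isyna1 cells (triangles), with the dotted line at the median of all genes in Emcn Aldh1a2 cells, 0.15. Cartilage-type collagens have the highest median in Emcn Aldh1a2 cells (1.20), and immediate early and heat shock genes the lowest (-0.27).

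Of 19 immediate early and heat shock genes, 4 were lower at P7 and 1 higher, with a median of -0.27 in the members and -0.62 in other kept cells. Of 73 ribosomal protein genes 0 were higher and 7 lower, with medians of -0.40 and -0.38, and of 13 mitochondrial genes 1 was higher and 1 lower, with medians of 0.51 and 0.19. Lists of 14 axon guidance genes, 13 matrix proteases and inhibitors, 6 cadherins, 5 integrins, 4 Notch genes and 2 potassium channels gave 0 calls in either direction. A single gene was called in each of 5 further lists, higher at P7 every time. These were Ccn4 of 4 CCN genes, Angptl4 of 8 genes of vessel growth factors and Slc3a2 of 5 genes of amino acid transport. The others were Serping1 of 7 complement and interferon genes and Cdk1, the sole gene of proliferation compared. The Cdk1 ratio was 1.20 in the members, 1.54 in other kept cells and 1.25 in Crym Isyna1 cells. All 10 genes of the proliferation list summed to 315 CPM at P1 and 285 at P7 in the members.

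RNA of markers of other cell types was found in the members, and several lists differed between the libraries. Erythroid markers summed to 145 CPM at P1 and 1336 at P7 in the members (835 and 1580 in other kept cells), with 3 of 3 higher, and neuronal markers to 112 and 28.6 (586 and 46.4), with 2 of 3 lower. Of the glial genes, Mbp was at 31.3 and 180.0 CPM (171 and 723 in other kept cells) and Sox10 at 4.12 and 18.8 (24.3 and 99.5). The erythroid and neuronal sums and these glial genes differed in the same direction in the members and in other kept cells, whereas macrophage markers were higher at P7 in the members and lower in other kept cells (247 and 166 CPM). Endothelial markers summed to 52.8 and 82.8 CPM, pericyte and smooth muscle markers to 28.3 and 106, macrophage markers to 4.78 and 57.1, neutrophil markers to 2.23 and 0.911, melanocyte markers to 13.4 and 49.4 and osteoblast markers to 146 and 76.0. Each of these 6 sums was lower than in other kept cells. The part of such RNA in the stage ratios was not tested.

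Marker lists of the labelled greater epithelial ridge, of cochlear epithelium and of hair cells summed to less in the members than in other kept cells. The greater epithelial ridge list summed to 117 and 156 CPM against 423 and 245 in other kept cells. It was lower in Ccn3-high Aldh1a2 cells, at 40.1 and 60.5 CPM, and higher in Crym Isyna1 cells, at 335 and 218. The cochlear epithelium list, with Epcam and Sox2, summed to 25.7 and 64.0 CPM against 142 and 271 in other kept cells. Epcam was found in 1.80% and 3.70% of the members. Hair cell markers summed to 24.3 and 5.62 CPM against 141 and 18.4 in other kept cells. Nearly all of the members' sum was Pvalb, with Tmc1, Slc26a5, Atoh1 and Pou4f3 at 0 UMIs at each stage. Fibroblast markers summed to 1408 and 2546 CPM, which was also below the 1664 and 3645 in other kept cells.

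Members with at least 2 UMIs of proliferation genes made up 5.71% (4.32 to 7.39) of the members at P1 and 4.77% (3.28 to 6.67) at P7 after thinning, and 10.6% and 12.1% before it. The intervals of the thinned shares overlap, and a difference was not detectable at this depth.

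Members made up 7.39% (6.95 to 7.86) of the kept cells at P1 and 5.37% (4.98 to 5.77) at P7, a log2 ratio of -0.46 (-0.66 to -0.27). The direction turned when every cell was thinned to 2000 UMIs before the rule was applied, with 175 of 12527 cells (1.40%) at P1 and 217 of 11870 (1.83%) at P7, a log2 ratio of 0.39. No order of the stages can be read from the share.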

How the data were processed

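Single-cell RNA of cochlear ducts was read in 1 library each at P1, P7 and P14. The deposited matrices hold UMI counts for each gene and barcode, which the authors made with bcl2fastq and Cell Ranger (matrix header 3.1.0) on the rn6 rat assembly, and the submitters' processing notes name Seurat 3.1.1 for later steps. The filter, rule and limits are given in the results. All 3 libraries were filtered alike. The members and the gene lists were chosen with earlier results of these data known.

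UMIs of each Ensembl gene were summed over the cells of a group and scaled to the total of the group, 8988918 UMIs at P1 and 6583616 at P7 for the members, to give counts per 1000000 UMIs (CPM). Ratios are log2 of CPM with 10 CPM added, and a gene is called at 1 or more or at -1 or less, with no test and no p-value, since each stage is 1 library. Genes found in at least 10% of the members at either stage were compared. Shares were also taken after every cell was thinned to 2000 UMIs (seed 0). Genes named in the text are the genes of the rule and the markers, the 15 with the largest ratio in each direction, the 15 that lead the members over other kept cells, and up to 4 examples of each list (genes called first, then those with the most UMIs). A few list genes beyond those examples, and genes said to be chosen after their values were seen, are exceptions. List symbols that were not matched are not analysed here. A few genes, and results that need them, are not reported here.

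Doublets were scored by Scrublet in each library and left in, and leaving them out is an alternative. Further alternatives were other limits of the rule, thinning, other added CPM, other totals, centring and other gene filters. The members with 3 or more Calb2 and Kcnk2 UMIs, and the whole set of alternatives for the genes beyond both other groups, were added after the data were seen. The calling step was tested on simulated data. Promoter windows came from a RefSeq table on GRCr8, which is not the authors' assembly, so no coordinate of rn6 is printed. Python 3.11.15, numpy 2.4.6, scipy 1.17.1, pandas 2.3.3, scanpy 1.11.5 and matplotlib 3.10.9 were used.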

Additional observations from a re-analysis of the deposited data

Results flagged for a closer look

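The P14 library was not part of the comparison of P1 with P7. There, 78 of 5281 kept cells (1.48%, 1.17 to 1.84) passed the same rule, with a median of 2565 UMIs. Of the 15 genes that led the P1 and P7 members, the 14 other than Aldh1a2 were all 2-fold or more higher in these 78 cells than in other P14 cells, with log2 ratios of 1.60 to 3.66, beside 8.88% of the 4302 genes compared there. Since the cells were chosen by the same rule, this describes them and tests nothing. Tnfaip6 was at 1782 CPM against 132 in other P14 cells, Kcnk2 at 689 against 51.1, Ramp1 at 1137 against 137 and Gsn at 10666 against 1134. Calb2 was at 119 CPM (80.2 to 170) against 18.5. Gpr182, named here after its value was seen, was at 305 CPM against 37.9, whereas Osr1 was at 31.7 against 46.6 and Crym at 11.9 against 44.0.

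For 2 of the genes named above, the log2 P7 to P1 ratio had one sign in the members and the opposite sign in other kept cells and was 0.5 or more in size in both. Further named genes, such as Calb2, Cldn11 and Mab21l1, had opposite signs with a smaller ratio in other kept cells. Itga8 had a log2 ratio of 0.66 in the members (222 and 357 CPM) and of -0.51 in other kept cells (45.4 and 28.8 CPM). Atp1b1 had a log2 ratio of 1.07 in the members (32.8 and 79.6 CPM) and of -0.74 in other kept cells (142 and 80.7 CPM). Neither difference was tested, since each stage is 1 library.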

How the results depend on the processing

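No paired analysis was possible because each stage is 1 library, and for the same reason no library could be left out. The log2 ratio of the share of members, -0.46, was -0.25 with a mitochondrial limit of 10%, -0.16 with Emcn at 5 or more UMIs, -0.92 with Ccn3 below 100 per 10000 and -0.20 for members with 3 or more Calb2 and Kcnk2 UMIs, and it turned to 0.39 with thinning before the rule. With 1 CPM added, 700 genes were higher at P7, 291 lower, 106 higher in the members than in other cells and 27 higher beyond both other groups, and with 50 CPM added the counts were 39, 19, 23 and 3. Centring gave 147 higher and 175 lower. Leaving genes with mitochondrial, ribosomal protein and hemoglobin symbols out of the total gave 168 lower, and thinning gave 147 lower. The 9 genes higher beyond both other groups became 14 with Aldh1a2 at 2 or more UMIs, 18 with Ccn3 below 100, 28 with thinning and 15 with no gene filter. Of 58 named genes, 41 of them called, 0 changed sign as a called value under any of 15 alternatives, and with 50 CPM added 16 came under 2-fold. The cause of these shifts was not tested. At P14 the lower depth limits what 78 cells can show.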
